A study of Mus musculus with 3 samples.

Results

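The Hoxa cluster and the stretch that follows it towards Hibadh were examined for binding of NUP98-HOXD13, a leukaemia fusion protein that joins part of NUP98, a nucleoporin, to the DNA-binding part of HOXD13, a homeobox factor. Every listed interval whose summit, the position of the peak's maximum, lay on chromosome 6 from 52.1 to 52.75 Mb of the mm10 mouse genome was taken. There were 14 such intervals of 1094 in all, 7 of 655 in the DMSO list and 7 of 439 in the VTP50469 list. The cells were a mouse leukaemia line carrying a biotinylated NUP98-HOXD13, grown with mouse IL-3, IL-6 and SCF, and all groups carried the fusion. One group was given DMSO, the solvent, and the other 2 µM VTP50469, an inhibitor of the menin-MLL interaction, and both were sampled at 96 h. DNA crosslinked to the fusion was recovered on streptavidin beads (BioChIP-seq) from 1 library per treatment. A DMSO input library was also made and was not analysed here. The line is a single one and the sources used here do not say whether it is 1 clone. Lists of bound intervals hold no expression values, so the identity of the cells could not be checked from their markers.

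Hox genes encode DNA-binding proteins that pattern the body axis, and in mammals the Hoxa genes lie in numerical order in 1 cluster. In blood, Hoxa7, Hoxa9 and Hoxa10 are active in stem and progenitor cells and are shut off as cells mature, and persistent Hoxa9 activity is a common feature of leukaemias with NUP98 or MLL fusions. MLL is a histone methyltransferase that is known to keep Hoxa genes active, and menin ties it to chromatin. Hibadh, beyond the cluster, encodes a mitochondrial enzyme of valine breakdown, and Tax1bp1, next to it, encodes a ubiquitin-binding adaptor of autophagy and inflammatory signalling.

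With DMSO the fusion was listed at 5 places from the annotated Hoxa3 start, between Hoxa6 and Hoxa7, to Hoxa9, and at 2 places beyond Hibadh. With VTP50469 it was listed at 6 of these 7 places, against 49.8% of all 613 DMSO peaks and 86.4% of the 154 strongest, and the missing one lay at the far end of Hoxa9. No summit lay within Hibadh itself in either list. The flank held 1 peak between Hibadh and Tax1bp1 and 1 inside Tax1bp1, so it is described here by both genes. At all 6 places found in both libraries fewer fragments were counted with VTP50469, by 15.1% to 31.6% after scaling for depth. Over all chromosomes 68.1% of 288 matched summits were lower too, with a median VTP50469 to DMSO ratio of 0.903. A ratio needs a summit in both lists, so places listed with DMSO alone are left out of these values. Of the 613 DMSO peaks, 308 overlapped no VTP50469 peak. There was no replicate, so each difference is between 2 libraries and was not tested against replicate error.

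One of the 7 places touched the immediate upstream sequence of an annotated Hoxa transcript start, that of Hoxa3. Its upstream sequence is shown beside those of Hoxa7 and Hoxa9, which had peaks inside the gene and none at the annotated start. Each of these genes had 1 start in the source used, and other starts were not examined. The sequences are from RefSeq (GRCm38.p6, the primary assembly of mm10), 250 bases ending just before the start, 5′ to 3′ on the minus strand, and capitals mark bases inside a DMSO peak.
Hoxa3 (chr6:52213068-52213317): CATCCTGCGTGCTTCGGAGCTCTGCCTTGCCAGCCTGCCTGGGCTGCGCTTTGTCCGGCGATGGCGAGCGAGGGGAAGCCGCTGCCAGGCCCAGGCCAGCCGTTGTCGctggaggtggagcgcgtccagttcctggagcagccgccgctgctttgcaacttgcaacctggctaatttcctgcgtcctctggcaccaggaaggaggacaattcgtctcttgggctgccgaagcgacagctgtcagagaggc
Hoxa7 (chr6:52218574-52218823): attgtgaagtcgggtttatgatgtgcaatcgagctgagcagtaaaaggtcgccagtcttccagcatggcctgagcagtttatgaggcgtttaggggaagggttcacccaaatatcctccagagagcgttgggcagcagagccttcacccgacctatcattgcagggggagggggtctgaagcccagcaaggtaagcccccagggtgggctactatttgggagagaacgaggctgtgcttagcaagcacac
Hoxa9 (chr6:52227371-52227620): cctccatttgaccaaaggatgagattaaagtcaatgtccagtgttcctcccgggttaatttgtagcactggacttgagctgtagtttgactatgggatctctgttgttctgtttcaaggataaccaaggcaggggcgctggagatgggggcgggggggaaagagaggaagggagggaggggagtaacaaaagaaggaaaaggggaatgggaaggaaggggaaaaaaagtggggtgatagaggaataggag

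In the Hoxa3 sequence the first 108 bases lay inside the DMSO peak, and the first 44 of these inside the VTP50469 peak. The nearest DMSO interval ended 942 bp from the Hoxa7 window and 650 bp from the Hoxa9 window, where a window runs from 250 bases before the start to 50 after it. RefSeq windows of this kind were at hand for 9 of the 11 Hoxa genes, 10 windows in all, and 1 of the 10 was overlapped by a peak in each list, against 15 and 12 of all 32851 windows. Counted by peaks, 1 of the 7 in each list overlapped such a window (14.3%, exact Clopper-Pearson 95% interval 0.361 to 57.9%). Among all peaks on chromosomes with such windows, 2.35% of DMSO peaks (14 of 595) and 2.82% of VTP50469 peaks (11 of 390) did. The 10 Hoxa windows held 4 to 45 CG dinucleotides (median 17.5), against a median of 7 over all windows. Hoxa3 had 20, Hoxa7 had 9 and Hoxa9 had 4, the lowest of the 10. The motifs searched, on both strands, were CAATAAA, TGATTTAT and TGACAG, none of which contains another. Of these, CAATAAA, a form bound by HOX13 proteins, and TGATTTAT, a form bound by PBX with HOX9 or HOX10 proteins, were in none of the 10 Hoxa windows, and were in 4.60% and 0.977% of all windows. TGACAG, the MEIS core, was in 2 of the 10, Hoxa2 and Hoxa3, against 19.2% of all windows. In Hoxa3 it began at base 238 counted from the 5′ end, read on the opposite strand, which is outside the peak. A match or its absence here is only a description of these windows.

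The Hoxa genes with peaks were those of the middle of the cluster. A gene was counted when a summit lay in its annotated span or within 10 kb of it. On this rule 6 of 11 Hoxa genes were counted with DMSO and the same 6 with VTP50469 (Hoxa3, Hoxa5, Hoxa6, Hoxa7, Hoxa9 and Hoxa10), against 1.48% and 1.06% of 21887 protein-coding genes. Of all 325 protein-coding genes counted with DMSO, 187 (57.5%) were counted again with VTP50469. At Hoxb 4 of 10 genes and at Hoxc 4 of 9 were counted with DMSO, and all of them again with VTP50469. The 6 Hoxa genes share 5 peaks, so they are not independent. Hoxa2, a gene of the hindbrain end, lay 48.6 kb from the nearest summit in both lists. Hoxa4 lay 21750 bp from the nearest DMSO summit, although the long annotated span of Hoxa3 encloses it, as well as Hoxa5 and Hoxa6. On the other side Hoxa10, a regulator of blood progenitors, lay 4838 bp from the nearest DMSO summit and Hoxa11 and Hoxa13, genes of limb and urogenital development, lay 15.7 and 32.5 kb away. Evx1, the homeobox gene at the end of the cluster, lay 87.1 kb from the nearest summit. Mir196b, the microRNA gene between Hoxa9 and Hoxa10, lay 3722 bp from the nearest DMSO summit.

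**Figure D1:**
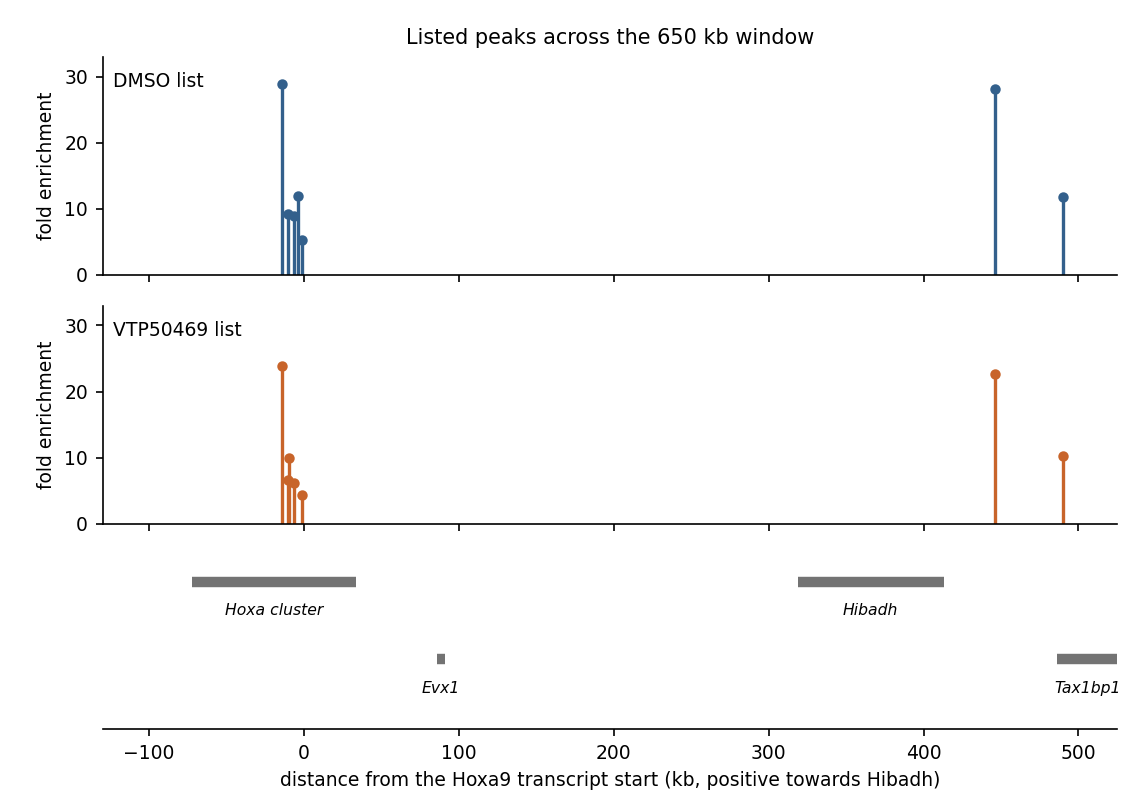
Fold enrichment (y axis) of every listed peak against distance from the Hoxa9 transcript start in kb (x axis), DMSO list above and VTP50469 list in the middle, with protein-coding gene spans below; Tax1bp1 continues past the right edge. Each list shows 5 peaks in the Hoxa cluster and 2 beyond Hibadh, about 447 kb apart.

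The 5 Hoxa peaks of the DMSO list followed each other at close distance. Their summits spanned 12.9 kb, with gaps of 3.40, 3.85, 2.56 and 3.10 kb. A stretch with 5 DMSO summits in that length occurred at 4 other places on the chromosomes, and in the VTP50469 list at none. The 5 VTP50469 summits include a pair 601 bp apart in Hoxa7, inside 1 DMSO interval, and none at the far end of Hoxa9. The next summit towards Hibadh was 447 kb away in both lists, and the last one a further 43.8 kb. Of bins of 650 kb that held any DMSO peak, 3 of 396 held 7 or more, and the median held 1. In the VTP50469 list 0 of 302 bins held 7 or more, and the most in 1 bin was 5. Bin edges are fixed and need not match those of the window.

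The strongest Hoxa peak lay just upstream of the annotated Hoxa3 start, which is between Hoxa6 and Hoxa7. In the DMSO list it ran from 52213210 to 52213636, was 427 bp wide and had a fold enrichment of 28.8, the fourth place of 613 on chromosomes 1 to 19, X and Y. In the VTP50469 list it ran from 52213274 to 52213642, was 369 bp wide and had a fold of 23.8, which was rank 8 of 400. Fold enrichment is the authors' ratio of the summit to a local background, and ranks from lists of different length are not compared. The DMSO summit lay 386 bp upstream of the Hoxa3 start and the VTP50469 summit 379 bp upstream, 7 bp apart. Both lay inside Hoxaas3, a long non-coding RNA gene, and 1038 and 1045 bp from Mira, another one, described as an activator of Hoxa6 and Hoxa7 in embryonic stem cells.

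The peak in Hoxa7, a homeobox gene of progenitors, was a single broad interval with DMSO and was listed as a pair with VTP50469. The DMSO interval, from 52216698 to 52217582, was 885 bp wide, the widest of the window and at rank 35 of 613 by width. Its summit had a fold of 9.28 and lay 1723 bp downstream of the Hoxa7 start. The VTP50469 intervals, from 52216710 to 52217020 and from 52217329 to 52217579, were 311 and 251 bp wide with folds of 6.68 and 10.0. The summit of the first lay 11 bp from the DMSO summit. The second lay 601 bp from the first and 1133 bp from the Hoxa7 start, and had the higher fold of the pair. Its fragment count, given below, was 79 against 70 at the first, with counting errors that overlapped. The DMSO list gives 1 summit for the interval, so the height with DMSO at the second place is not known.

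Between Hoxa7 and Hoxa9 a narrow peak was found in both lists. It was 320 bp wide with a fold of 8.84 with DMSO (52220536 to 52220855), and 267 bp wide with a fold of 6.13 with VTP50469 (52220556 to 52220822). Its DMSO summit lay 2125 bp upstream of the Hoxa7 start and 2399 bp past the far end of Hoxa9, in no protein-coding gene.

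Hoxa9, the gene most often linked to leukaemic self-renewal in this cluster, held 2 DMSO peaks and 1 VTP50469 peak. The shared one, 1011 bp downstream of the Hoxa9 start with DMSO and 1017 bp with VTP50469, was 499 and 529 bp wide. It had the lowest fold of the window in each list, 5.27 (52226173 to 52226671) and 4.32 (52226214 to 52226742). The other, from 52223112 to 52223411, lay 163 bp inside the far end of the Hoxa9 span, 4110 bp downstream of the start, and was in the DMSO list alone. It was 300 bp wide with a fold of 12.0, the second highest of the 5 Hoxa peaks. The gene table gives spans without exons, so it cannot be said whether these summits were exonic, intronic or in a UTR.

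**Figure D2:**
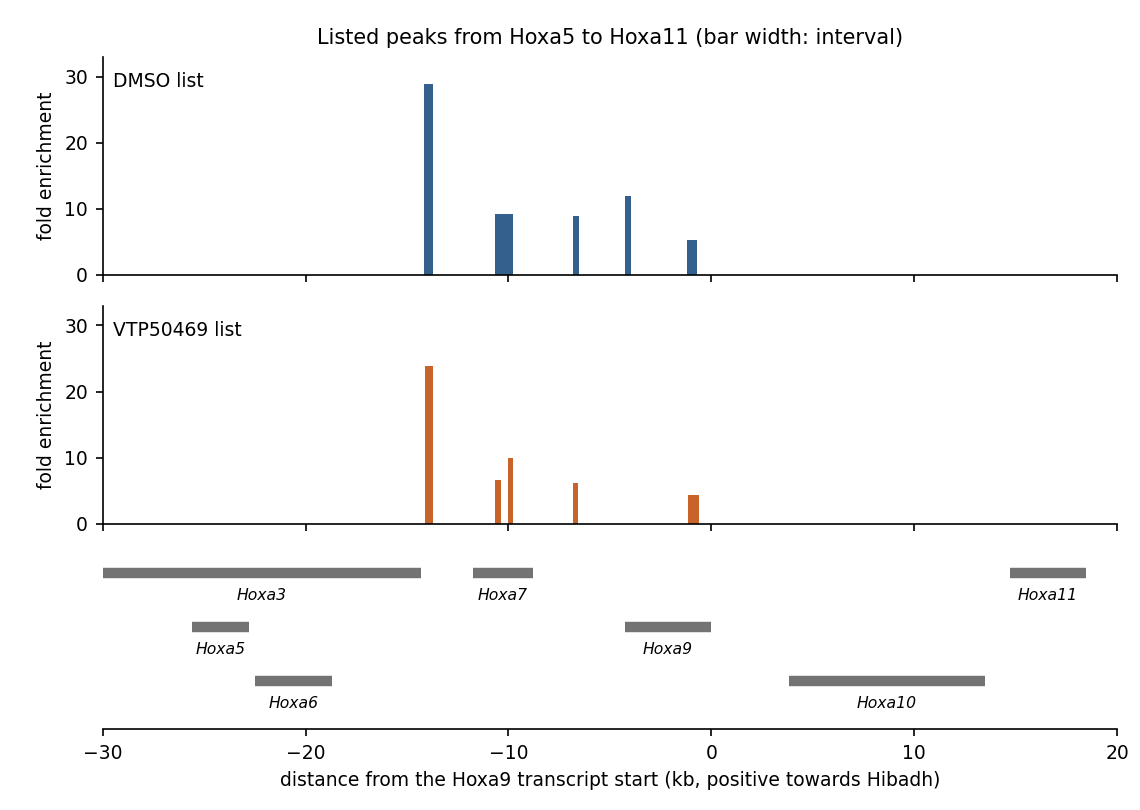
Fold enrichment (y axis) of the listed intervals from Hoxa5 to Hoxa11 against distance from the Hoxa9 start in kb (x axis), each bar as wide as its interval, with gene spans below. The broad DMSO interval in Hoxa7 stands over a pair of VTP50469 intervals, and the DMSO bar at the far end of Hoxa9, of fold 12.0, has no VTP50469 counterpart.

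Beyond the cluster, the peak between Hibadh and Tax1bp1 was close in height to the one at Hoxa3. It ran from 52673259 to 52674106 with DMSO, with a width of 848 bp and a fold of 28.0, and from 52673288 to 52674076 with VTP50469, with a width of 789 bp and a fold of 22.7. These folds were at rank 6 of 613 and 9 of 400. The DMSO summit lay 33.5 kb upstream of the Hibadh start. The peak in Tax1bp1 was 325 bp wide with a fold of 11.8 with DMSO (52717424 to 52717748), and 333 bp wide with a fold of 10.2 with VTP50469 (52717453 to 52717785). Its DMSO summit lay 3846 and 3410 bp downstream of the pair of annotated Tax1bp1 starts, and the VTP50469 summit lay 49 bp from it, the largest shift of the 6 matched pairs. The other 5 pairs lay 6 to 11 bp apart.

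With DMSO, 6 of the 7 peaks were shared, which means an overlap of at least 1 bp with a peak of the other list, or 85.7% (exact Clopper-Pearson 95% interval 42.1 to 99.6%), against 49.8% of all 613 DMSO peaks. All 7 VTP50469 peaks overlapped a DMSO peak (59.0 to 100%), against 77.8% of all 400. These intervals cover counting error only, and neighbouring peaks are not independent. By −log10 q, 6 of the 7 were among the 154 strongest DMSO peaks, and 133 of those 154, or 86.4%, were shared. With VTP50469, 3 of the 7 were among the 100 strongest peaks, and all 100 of those were shared. The median fold of the window was 11.8 with DMSO and 10.0 with VTP50469, against 7.64 and 7.33 over each list. The median width was 427 and 333 bp, against 350 and 335 bp. The flank raised the median folds: the 5 Hoxa peaks alone had a median fold of 9.28 with DMSO and 6.68 with VTP50469, the latter below the 7.33 of its list, and the 2 flank peaks had 19.9 and 16.5. With VTP50469 the Hoxa peaks had a median width of 311 bp, also below that of the list. The window's intervals covered 3604 bp with DMSO and 2849 bp with VTP50469.

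The unlisted Hoxa9 peak was not among the weak ones. Its −log10 q was 20.9, and of the 142 DMSO peaks with that value or more 126 were shared, or 88.7%. It was at rank 16 of the 308 peaks of the DMSO list alone. The peak in Tax1bp1 had the same −log10 q with DMSO, 20.9, and was listed with VTP50469 at 15.9. The VTP50469 list gives no height for a place it does not hold, so no ratio can be given for the far end of Hoxa9. The fewest fragments listed with VTP50469 at the genome background were 26. The narrowest intervals listed on the chromosomes were 244 bp with DMSO and 240 bp with VTP50469, against 300 bp for this peak, and its width with VTP50469 cannot be read either.

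The number of sequenced fragments over each summit was worked back from the fold and p-value that the authors list. Just upstream of Hoxa3 there were 189 fragments with DMSO (exact Poisson 95% interval 163 to 218) and 146 with VTP50469 (123 to 172). Between Hibadh and Tax1bp1 there were 184 (158 to 213) and 139 (117 to 164). These were the highest places of the window in both libraries. At the matched summit in Hoxa7 there were 104 fragments with DMSO (85.0 to 126) and 70 with VTP50469 (54.6 to 88.4), and the second VTP50469 summit there had 79 (62.5 to 98.5). Between Hoxa7 and Hoxa9 there were 99 (80.5 to 121) and 64 (49.3 to 81.7). The shared peak in Hoxa9 had 73 (57.2 to 91.8) and 56 (42.3 to 72.7), and that in Tax1bp1 76 (59.9 to 95.1) and 61 (46.7 to 78.4). The DMSO-only peak at the far end of Hoxa9 had 77 (60.8 to 96.2), close to the 73 of the shared peak in the same gene. The intervals of the 2 libraries overlapped at each matched place.

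**Figure D3:**
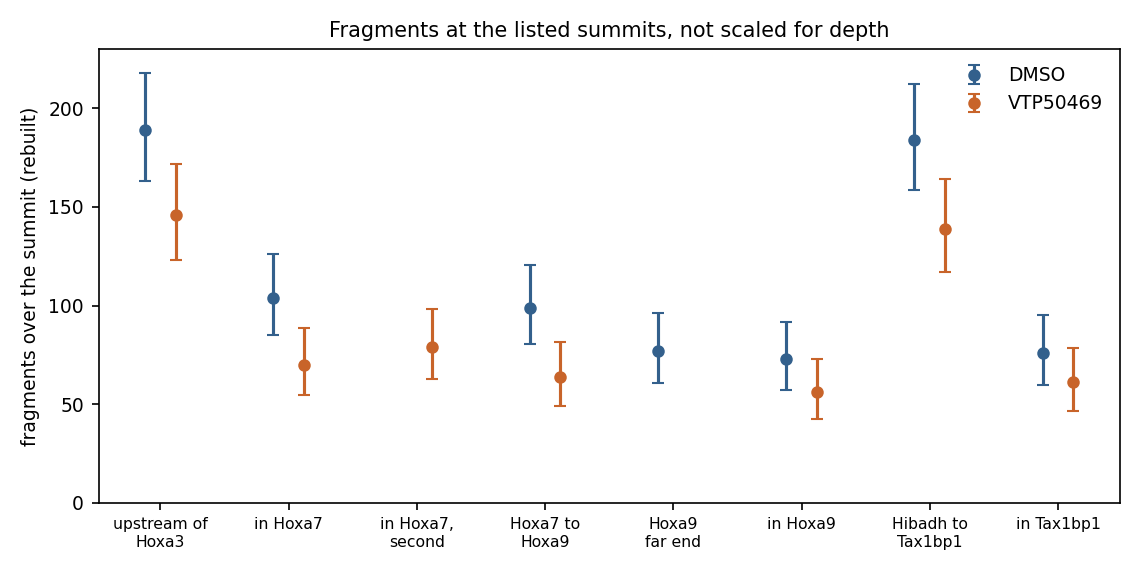
Rebuilt fragments over each listed summit of the window (y axis), by place from Hoxa3 to Tax1bp1 (x axis), in the DMSO and VTP50469 lists; points are single libraries and bars are exact Poisson 95% intervals, for counting error only. The VTP50469 point is the lower one at all 6 matched places, and the second Hoxa7 summit and the far end of Hoxa9 have a point in 1 list only.

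Scaled for depth, with the VTP50469 library taken as 5.50% shallower, the ratio of VTP50469 to DMSO fragments was lowest between Hoxa7 and Hoxa9, at 0.684 (exact binomial 95% interval 0.492 to 0.946), and in Hoxa7, at 0.712 (0.518 to 0.974). It was 0.817 (0.654 to 1.02) upstream of Hoxa3, 0.812 (0.563 to 1.17) in Hoxa9, 0.799 (0.637 to 1.002) between Hibadh and Tax1bp1, and 0.849 (0.596 to 1.21) in Tax1bp1. The intervals of the 6 places overlap one another, so no order among them can be read. All 6 ratios were below 1, against 68.1% of the 288 matched summits on the chromosomes. In 2 of the 6 the interval lay below 1, against 19.4% of all. In Hoxa7, 1 of these 2, the DMSO summit was matched with the lower of the pair of VTP50469 summits. That summit had 70 fragments, against 79 at the higher one inside the same DMSO interval, so this ratio depends on the pairing. The median of the 6 was 0.806, against 0.903 (interquartile range 0.755 to 1.04) over all 288. That set includes weaker places, and holds only places listed in both libraries. Over the 148 matched summits outside the window with at least 73 DMSO fragments, the fewest in the 6, the median was 0.867. Of those 148, 75.7% had a ratio below 1 and 31.1% an interval below 1, and 2 of 6 was near the latter share. That set has a lower limit only and reaches 5411 DMSO fragments, against 189 in the window. Its fragment counts are therefore not matched to those of the window. Divided by the median of all matched summits, the 6 ratios ran from 0.758 to 0.941 and their median was 0.892. Their ranks from the lowest ran from 44 to 117 of 288, so the window lay within the lower part of the genome-wide range. At the other Hox clusters with peaks, the ratios were 0.916 and 0.952 at the 2 matched Hoxb summits, and from 0.668 to 1.002 at the 3 matched Hoxc summits. Whether the clusters differ was not tested.

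**Figure D4:**
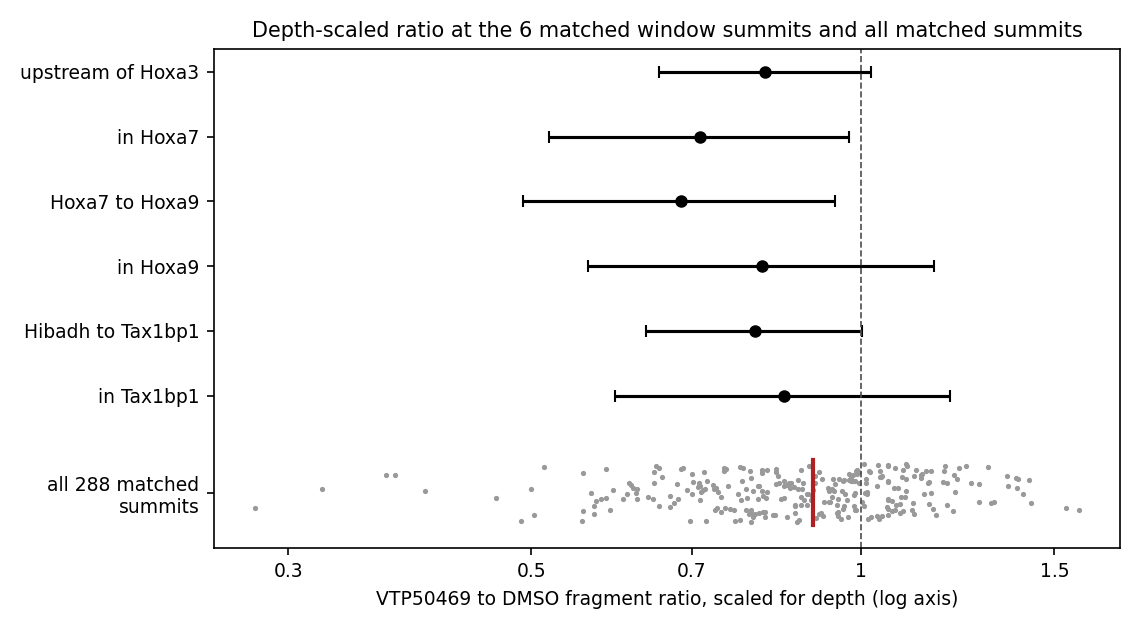
Depth-scaled ratio of VTP50469 to DMSO fragments (x axis, log scale) at the 6 matched places of the window, with exact binomial 95% intervals, above the 288 matched summits of all chromosomes as grey points with their median in red; the dashed line marks 1. The 6 places lie between 0.684 and 0.849, to the left of the genome-wide median of 0.903.

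Fold and fragments ordered the Hoxa peaks differently. The DMSO-only peak at the far end of Hoxa9 had a higher fold (12.0) than the peaks in Hoxa7 (9.28) and between Hoxa7 and Hoxa9 (8.84), but fewer fragments, 77 against 104 and 99. The background at these places is worked out from the fold and the fragments, so it differs with them by construction. It was 1.31 at the far end of Hoxa9, the value of the whole genome, 3 in Hoxa7 and in the gap, and 4 in the shared Hoxa9 peak, on the scale of the control. At the 3 matched summits above the genome background the VTP50469 list gave 3, 3 and 4 again. Over all chromosomes 79 of 108 such summits had values within 2% of each other. The peaks upstream of Hoxa3, between Hibadh and Tax1bp1 and in Tax1bp1 had the genome background in each list. The second VTP50469 summit in Hoxa7 had a background of 2. What raised the background in Hoxa7, in the gap and at the shared Hoxa9 peak was not tested.

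**Figure D5:**
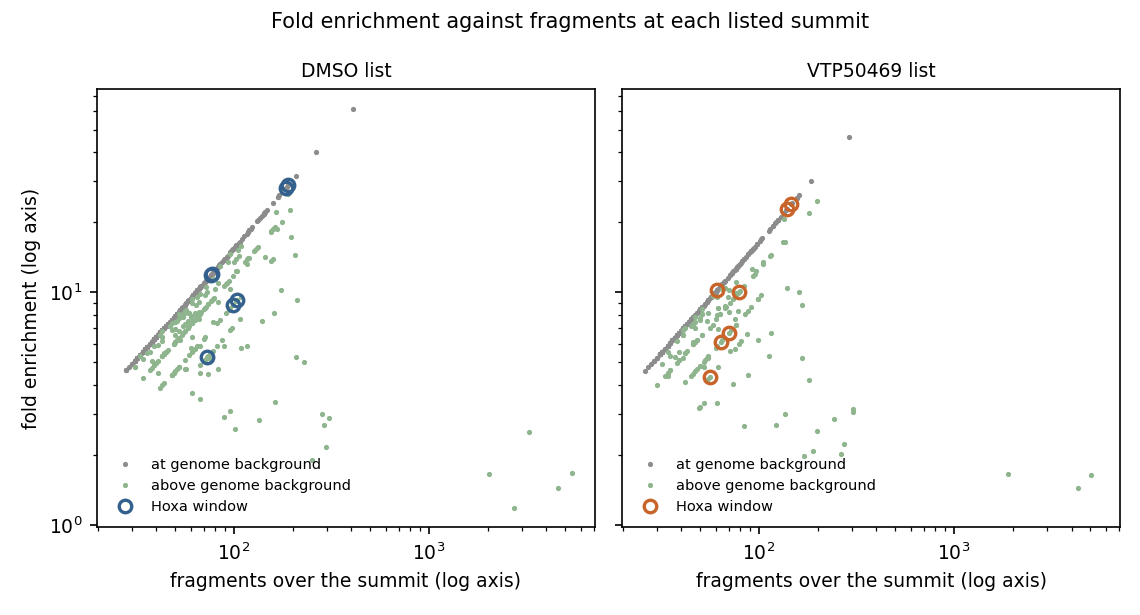
Fold enrichment (y axis, log scale) against rebuilt fragments over the summit (x axis, log scale) for every peak with a rebuilt count in the DMSO list (left) and the VTP50469 list (right), coloured by whether the background was that of the whole genome, with the window's peaks ringed. Window peaks on the upper line, such as that of 189 DMSO fragments, are at the genome background, and those below it, such as the Hoxa9 peak of 73 fragments and fold 5.27, are above it.

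The Hoxa cluster held more peaks than the other Hox clusters. With 10 kb added on each side there were 5 at Hoxa, 2 at Hoxb and 4 at Hoxc with DMSO, and 5, 2 and 3 with VTP50469, and 0 at Hoxd in either list. The 5 Hoxa peaks with VTP50469 include 2 that lie within 1 DMSO interval in Hoxa7. The highest fold was 28.8 at Hoxa, 26.1 at Hoxb and 20.2 at Hoxc with DMSO. The lowest was 5.27 at Hoxa, 21.3 at Hoxb and 7.19 at Hoxc, so the Hoxa peaks covered the widest range. Of 9 genes of HOX cofactors (PBX, MEIS and PKNOX proteins), Pbx3 had a peak in both lists and Meis1 in the DMSO list alone. That is 2 of 9 and 1 of 9, against 1.48% and 1.06% of all protein-coding genes. Of 7 genes flanking the cluster, Tax1bp1 and Jazf1 had one in both lists and Skap2 in the DMSO list alone, or 3 of 7 and 2 of 7. Of all 325 genes counted with DMSO, 187 (57.5%) were also counted with VTP50469.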

How the data were processed

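The series had 3 samples, of which the DMSO and VTP50469 pull-downs, 1 library each with paired 37 bp reads, had a peak list. Per the submitters' processing notes the build was mm10 and the tools were MACS2, bedtools, STAR 2.7.5a, SAMtools 1.95, bcl2fastq 2.20.0.422 and Picard 2.9.4. The sources used here give neither their settings nor the control. The authors called peaks per library. For each peak the authors deposited a fold enrichment (a ratio), its p-value and q-value as −log10, and a score, which was not used. The members and gene lists were chosen with earlier results of these data known. Named genes were the Hoxa genes, Evx1 and Hibadh, genes holding or nearest to a window summit, and for comparison other Hox genes and cofactors; Mir196b, Jazf1 and Skap2 were added after their values were seen. Not every gene of this rule is reported here.

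The background was all peaks on chromosomes 1 to 19, X and Y. Fragments were rebuilt as whole numbers that give the listed fold, with a pseudocount of 1, and the listed −log10 p within 0.001 under a Poisson model. A count was found for 611 of 613 DMSO and 397 of 400 VTP50469 peaks. This assumes that both lists used 1 control, which no source states. Duplicate handling is not given either, so fragments may not be independent molecules. On 600 simulated peaks in each of 3 settings at least 98.8% of counts were right and 0% wrong. These peaks were drawn from the same model, with backgrounds only at the genome value or at whole numbers. They check the arithmetic of the rebuild and not whether the model holds for the listed peaks. Summits within 200 bp were matched. The lists hold no read totals, so depth is known only as the ratio from the rebuild. Analyses used scipy 1.17.1, pandas 2.3.3 and numpy 2.4.6 under Python 3.11.15, and figures matplotlib 3.10.9.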

Additional observations from a re-analysis of the deposited data

How the results depend on the processing

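Of 50 alternative values 45 stayed within the tolerance, 5 did not and 0 turned direction. Most were counts, shares or medians, which have no direction to turn. Some could not change. The VTP50469 list already had the equal length of 400, and the matched window summits were at most 49 bp apart. The tolerance was 1.5 times for counts and the 95% interval of the value for shares and medians, which with 7 peaks is wide. The alternatives were stricter −log10 q thresholds of 5 and 10, lists of equal length, a window held to the Hoxa cluster, other overlap rules, gene flanks and summit distances, and a ratio unscaled for depth, the last chosen after seeing the data. The Hoxa genes counted fell to 3 in both lists at a flank of 2 kb and rose to 10 at 50 kb, by construction. Within the tolerance, a window held to the Hoxa cluster gave a VTP50469 median fold of 6.68, below that of its list, and a DMSO one of 9.28. A stricter −log10 q minimum of 10 left 6 peaks with DMSO and 5 with VTP50469 and a DMSO shared share of 66.7%, and a reciprocal overlap of 50% gave 71.4% in both lists. The shares over all peaks at these settings are not given here. These values therefore cannot be set against the 49.8% and 77.8% of the main lists, which used an overlap of 1 bp. The median fragment ratio was 0.892 when divided by the median of all matched summits, and 0.761 unscaled for depth. No paired analysis was possible because there was a single library for either treatment. Rebuilt counts of 56 to 189 fragments limit the precision of each ratio, and single places could not be told apart.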
